A study of Mus musculus with 3 samples.

Results

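Keratin genes were taken as the protein-coding genes whose symbol is Krt followed by digits alone, and 46 of 22367 protein-coding genes met this rule. Of these, 25 were type I (acidic) keratin genes in 1 cluster on chromosome 11, and 21 lay in the type II cluster on chromosome 15, which holds the basic keratins and also Krt18, the type I partner of Krt8. The rule reads symbols and uses no measured value. Symbols with a letter or suffix after the digits (Krt6a, Krt6b, Krt33a, Krt33b and Krt72-ps) fell outside it, and none of those 5 genes had a peak at its start site in either replicate.

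Keratins are the intermediate filament proteins of epithelia, and each filament is built from a type I chain paired with a type II chain. Simple epithelia use Krt8 with Krt18, the basal layer of the epidermis uses Krt5 with Krt14, differentiating epidermis adds Krt1 with Krt10, and the hair shaft and its root sheaths use sets of their own. TFAP2A is a transcription factor that acts in the neural crest, in melanocytes and in surface ectoderm, where AP-2 sites have long been studied in keratin gene promoters. Melanocytes come from the neural crest and are not an epithelial cell type.

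The libraries came from melan-a, an immortalised line of mouse melanocytes from normal embryonic skin that is homozygous for a Cdkn2a mutant allele (Cdkn2a tm1RDp/tm1RDp). Cells received no treatment beyond their growth medium, which holds a phorbol ester and cholera toxin. TFAP2A was precipitated with the AP-2alpha antibody 3B5 in 2 ChIP replicates, and both were set by the study against unprecipitated input chromatin, whose reads are not analysed here. The lists held 18528 peaks in replicate 1 and 21459 in replicate 2, with median fold enrichments over background of 5.56 and 5.75; read depth was unknown. A peak was called shared when it overlapped a peak of the other list by at least 1 bp, which gave 16134 shared peaks counted on the replicate 1 side. All cells were of 1 line, and p-values were not computed: with 2 lists, values are given per replicate, and intervals are exact 95% intervals that cover counting error only.

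Peak lists hold no RNA level, so whether a keratin was expressed was not measured. Melanocyte markers Sox10, Mitf, Dct, Tyrp1 and Mc1r each had a shared peak near a start site, Tyr had peaks in replicate 2 only, and Pmel had none in that window. The epithelial genes Trp63, Dsp, Ivl and Cdh1 had no peak there in either list, whereas other genes that keratinocytes use, such as Itga6, Itgb4, Plec, Dst and Tgm1, did have shared peaks, so these markers do not stand for keratinocyte genes as a whole.

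Inside the clusters lay 7 shared peaks, and their sequences are shown because they are all the peaks that both replicates placed among the keratin genes. Each runs from 50 bases before the first of the 2 replicate summits to 50 bases past the other, on the plus strand of mm9, with capitals marking the letters GCCNNNGG of the TFAP2 consensus on either strand; the Krt40 stretch holds none.
Near Krt39, chr11:99369274-99369441: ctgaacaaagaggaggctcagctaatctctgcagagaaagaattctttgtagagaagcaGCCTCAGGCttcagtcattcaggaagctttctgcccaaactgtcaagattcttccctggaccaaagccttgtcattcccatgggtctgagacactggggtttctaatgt
In an exon of Krt40, chr11:99401151-99401280: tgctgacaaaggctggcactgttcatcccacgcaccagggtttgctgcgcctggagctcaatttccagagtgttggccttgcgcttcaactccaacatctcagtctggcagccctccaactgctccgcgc
Among the keratin-associated protein genes, nearest to Gm11595, chr11:99629919-99630086: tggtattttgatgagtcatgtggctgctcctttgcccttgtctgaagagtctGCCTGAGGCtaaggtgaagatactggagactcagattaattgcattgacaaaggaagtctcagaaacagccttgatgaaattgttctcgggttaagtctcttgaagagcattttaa
Near Krt33a, chr11:99866283-99866441: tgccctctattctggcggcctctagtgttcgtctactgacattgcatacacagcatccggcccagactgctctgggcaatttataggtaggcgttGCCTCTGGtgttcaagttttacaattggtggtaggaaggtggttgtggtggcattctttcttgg
Upstream of Krt31, chr11:99917054-99917225: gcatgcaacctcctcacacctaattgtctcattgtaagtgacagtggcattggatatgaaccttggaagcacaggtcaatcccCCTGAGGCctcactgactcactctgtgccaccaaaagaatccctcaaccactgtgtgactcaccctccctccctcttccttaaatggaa
Just upstream of Krt80, chr15:101200994-101201149: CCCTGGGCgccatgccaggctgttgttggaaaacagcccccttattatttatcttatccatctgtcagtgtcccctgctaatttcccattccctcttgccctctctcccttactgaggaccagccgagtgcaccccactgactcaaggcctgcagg
Farther upstream of Krt80, chr15:101205493-101205610: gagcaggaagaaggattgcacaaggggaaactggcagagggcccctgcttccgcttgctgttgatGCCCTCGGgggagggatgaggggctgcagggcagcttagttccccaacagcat

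The consensus stood in the whole peak in 7 of 7 cases, in each replicate's interval, against 81.6% of all 16099 shared peaks on assembled chromosomes. Its place relative to the summit differed between the lists. With the whole match required to lie within 50 bp of the replicate 1 summit, the letters were found in 2 of 7 keratin cluster peaks (28.6%, exact interval 3.67 to 71.0), against 57.1% of all shared peaks. By the same rule at the replicate 2 summit they were found in 6 of 7, against 60.1% of the shared peaks counted on that side. The 2 summits of a pair lay 17 to 71 bp apart, so the count of central sites turned on which list supplied the summit. At the peak near Krt39 the site lay 50 bp from the replicate 1 summit and 9 bp from the replicate 2 summit, and at the peak nearest to Gm11595 these distances, taken to the nearest base of the match, were 57 and 2 bp. At the peak near Krt33a they were 45 and 6 bp, and the match ran past the 50 bp limit on the replicate 1 side, as it did near Krt39. At the nearer Krt80 peak they were 98 and 43 bp. At the upstream Krt80 peak the site lay under the replicate 1 summit and 15 bp from that of replicate 2. A match to these letters is a description of sequence, not a binding site shown by these data.

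The first question was whether keratin genes carried TFAP2A at their start sites in melanocytes. A gene was counted when a peak summit lay no more than 5 kb before or 1 kb past a transcription start site (TSS) of any of its transcripts. By this count 1 of 46 keratin genes had a shared peak (2.17%, exact interval 0.0550 to 11.5), against 17.0% of all protein-coding genes. Replicate 1 alone gave 1 of 46, against 18.6% of all genes, and replicate 2 alone gave 2 of 46 (4.35%, 0.531 to 14.8), against 20.9% of all genes. The upper ends of these intervals were below the share of all genes in both replicates and in the shared set. Keratin genes sit side by side, so they are not independent draws and the intervals are too narrow to that extent. Without replicate 1 the count was 2 and without replicate 2 it was 1. A gene with more annotated TSSs has more windows. With only the 5' end of each gene model used, the shared count was 1 of 46, against 13.9% of all genes.

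Krt80, a type II keratin of differentiating epithelial cells (ENSMUSG00000037185.7, minus strand, chr15:101177875-101200556), was the gene with the shared peak. Its summit lay 543 bp upstream of the TSS in replicate 1 and 488 bp upstream in replicate 2. The fold enrichment was 2.93 in replicate 1 and 4.17 in replicate 2 (3.55 ± 0.879, SD, n = 2). These values were low for the lists: 95.4% of replicate 1 peaks and 78.3% of replicate 2 peaks were at least as enriched. The stronger Krt80 peak lay farther out, with fold enrichments of 7.34 and 8.96 (8.15 ± 1.15, SD, n = 2). Its summit was at -5004 bp in replicate 1, 4 bp beyond the window, and at -4987 bp in replicate 2, inside it (negative positions are upstream). The gene was counted either way through the nearer peak. With only the more enriched 50% of each list kept, the nearer peak dropped out and no keratin gene had a shared peak in the window, against 6.40% of all genes.

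Krt35, a type I keratin of the hair cortex and cuticle, was the other gene counted in replicate 2. That peak had a fold enrichment of 4.84 and its summit lay at -2741 bp, and replicate 1 had no peak there. In replicate 1 the nearest summit to Krt35 was 40.4 kb away.

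Several hair keratin genes had peaks just past the window. Krt31 had a shared peak at -5310 bp in replicate 1 and -5239 bp in replicate 2, with fold enrichments of 10.6 and 4.39, which differed 2.41-fold and gave 7.50 ± 4.39 (SD, n = 2). Krt40 had a shared peak 3242 bp downstream of its TSS in replicate 1 and 3271 bp in replicate 2, in an exon, with fold enrichments of 5.38 and 4.73. Krt81 had a peak 5151 bp downstream in replicate 2 only, with a fold enrichment of 6.15. With the window widened to 10 kb on each side the count rose to 3 of 46 keratin genes with a shared peak (Krt80, Krt31 and Krt40), against 26.3% of all genes.

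The second question was which keratin classes lay nearest to TFAP2A. Counting to 100 kb on each side, 22 of 46 keratin genes had a shared peak (47.8%, 32.9 to 63.1), against 69.6% of all genes. Replicate 1 alone gave 22 of 46, against 72.1% of all genes, and replicate 2 alone gave 29 of 46 (63.0%, 47.5 to 76.8), against 74.9%, which lies inside that interval. The median distance from a keratin TSS to the nearest summit was 121 kb in replicate 1 and 72.0 kb in replicate 2 (96.3 ± 34.4, SD, n = 2), against 35.9 and 30.3 kb for all protein-coding genes (33.1 ± 3.95). The keratin median was the larger in both lists. From replicate 1 to replicate 2 the distance shortened by more than 1 kb for 29 of 46 keratin genes (63.0%) and lengthened for none. Over all genes it shortened for 21.9% and lengthened for 9.91%. Keratin genes shared their nearest peaks: all 46 pointed to 8 peaks in replicate 1 and 11 in replicate 2, and up to 12 genes pointed to the same peak.

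**Figure D1:**
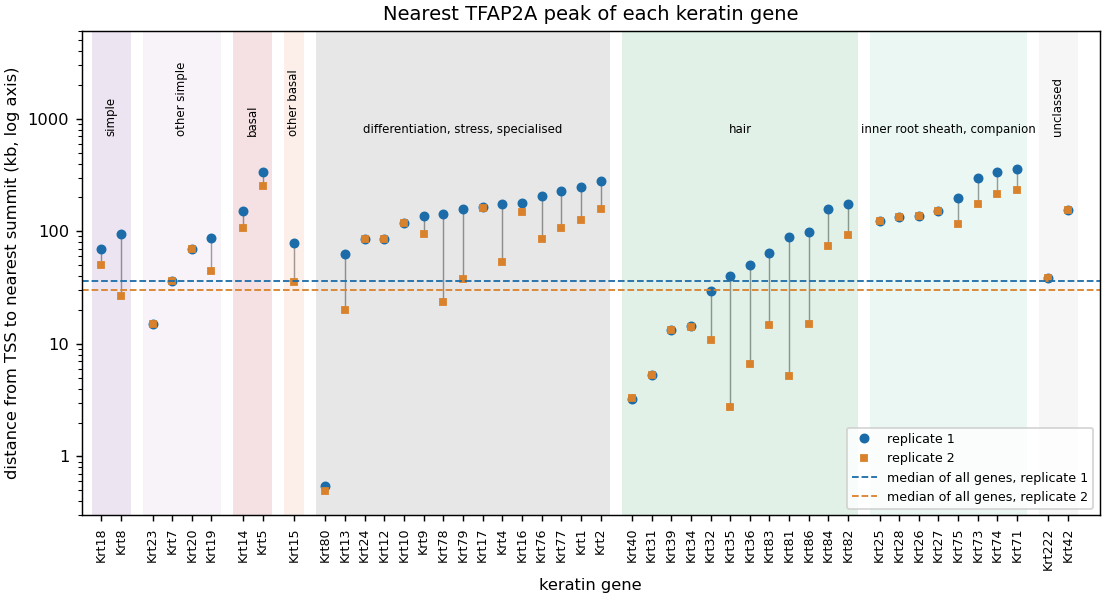
Distance in kb (log axis) from the TSS of each of the 46 keratin genes to the nearest TFAP2A summit in replicate 1 (circles) and replicate 2 (squares), ordered within classes by the replicate 1 value, with the medians of all protein-coding genes, 35.9 and 30.3 kb, as dashed lines. Krt80 sits at 0.543 and 0.488 kb, the hair keratins come next with a replicate 2 median of 12.0 kb, and all 8 genes of the inner root sheath and companion layer sit above 100 kb in both lists.

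Krt8 and Krt18, the partners of simple epithelia, are neighbours at the right end of the type II cluster, and neither had a peak at its TSS in either list. The nearest summit to Krt8 was 94.0 kb away in replicate 1 and 26.6 kb in replicate 2. For Krt18 the distances were 70.1 and 50.5 kb. The shorter replicate 2 distances of both genes came from 1 peak between Krt78 and Krt8, with a fold enrichment of 3.97, that replicate 1 lacked. The other simple-epithelial keratins, Krt7, Krt19, Krt20 and Krt23, ranged from 14.9 to 87.8 kb in replicate 1 and from 14.9 to 69.9 kb in replicate 2. All 4 of these keratins had a shared peak within 100 kb, as had 69.6% of all genes. Krt23 was the nearest of them, through the shared peak that lies between it and Krt39.

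Krt5 and Krt14, the partners of basal keratinocytes, lay farther out. The nearest summit to Krt5 was 338 kb away in replicate 1 and 254 kb in replicate 2, and for Krt14 the distances were 150 and 107 kb. Neither basal gene had a peak of either list within 100 kb, whereas both simple-epithelial genes did. Of all genes, 72.1% had a replicate 1 peak and 74.9% a replicate 2 peak within that distance. Krt15, a further basal keratin that also marks the hair follicle bulge, lay 78.5 and 35.4 kb from a summit. With 2 genes in each pair, and neighbouring genes reading the same peaks, the order of the pairs is a description.

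The 12 hair keratin genes of the rule had the smallest class median, 45.1 kb to a shared summit, with the 4 other simple-epithelial genes next at 52.9 kb. They ranged from 3.24 to 176 kb in replicate 1, with a median of 45.1 kb, and from 2.74 to 92.1 kb in replicate 2, with a median of 12.0 kb. A shared peak lay within 100 kb of 10 of them, and a replicate 2 peak within 100 kb of all 12; the shares of all genes were 69.6 and 74.9%, so the count of 10 was near that of genes in general. The type I hair genes Krt31, Krt34, Krt39 and Krt40 kept like distances in both lists, from 3.24 to 14.3 kb in replicate 1 and from 3.27 to 14.2 kb in replicate 2. The type II hair genes Krt81, Krt83 and Krt86 lay 88.6, 63.7 and 98.3 kb away in replicate 1 but 5.15, 14.7 and 14.9 kb away in replicate 2. Those shorter distances came from 2 peaks that only replicate 2 listed, with fold enrichments of 6.15 and 4.84. The type I hair genes Krt32, Krt35 and Krt36 also moved closer in replicate 2, from 29.6, 40.4 and 49.8 kb to 10.8, 2.74 and 6.64 kb, through the peak upstream of Krt35 that only that list held. Both types thus had hair genes whose nearest peak was listed in replicate 2 alone.

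Within 100 kb, 72.1% of all genes had a peak in replicate 1 and 74.9% in replicate 2. The 8 keratins of the inner root sheath and companion layer (Krt25 to Krt28, Krt71, Krt73, Krt74 and Krt75) had none there in either list. Their distances ran from 123 to 355 kb in replicate 1 and from 115 to 235 kb in replicate 2. Thus 2 sets of hair follicle keratins differed in how near a peak lay. The median distances to a shared summit were 45.1 kb for the hair shaft and 175 kb for the sheath, and the 2 ranges overlapped. In replicate 2 the medians were 12.0 and 144 kb, and the ranges, 2.74 to 92.1 kb and 115 to 235 kb, did not overlap.

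The 15 keratins of epidermal and mucosal differentiation, stress and specialised epithelia had a median of 158 kb to a shared summit. A shared peak lay within 100 kb of 4 of them, against 69.6% of all genes. In replicate 2 the median was 85.8 kb and 9 of the 15 had a peak within 100 kb, against 74.9% of all genes. Krt1, the type II keratin of the suprabasal epidermis, lay 248 kb from a summit in replicate 1 and 127 kb in replicate 2. Krt10, its type I partner, lay 119 kb away in both. Krt16 and Krt17, the keratins of wounded and stressed epidermis, lay 177 and 165 kb away in replicate 1, and 150 and 162 kb away in replicate 2. Apart from Krt80, the nearest of the class to a peak was Krt13, a mucosal keratin, at 63.0 and 19.9 kb. The unclassed genes Krt222 and Krt42 lay 38.5 and 156 kb from a shared summit, both towards peaks outside the cluster.

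The third question was how peaks were spread along the clusters. The type I cluster (chr11:99094075-100131185, 1037 kb from the first to the last keratin gene) held 83 protein-coding genes, the keratin-associated protein (Krtap) genes among them, and 5 peaks in replicate 1, 6 in replicate 2 and 5 shared. This is 4.82 and 5.79 peaks per Mb (5.30 ± 0.682, SD, n = 2). Stretches of the same length to the left and right held 15.4 and 18.3 peaks per Mb in replicate 1, and 20.2 and 23.1 in replicate 2. For shared peaks the cluster had 4.82 per Mb (exact Poisson interval 1.57 to 11.3), the flanks 13.5 and 15.4, chromosome 11 as a whole 9.03, and all assembled chromosomes 6.29. The cluster was therefore below both flanks in each list, while its interval covered the densities of the chromosome and the genome.

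The type II cluster (chr15:101177875-101862457, 684.6 kb, 28 protein-coding genes) held 2 peaks in replicate 1, 5 in replicate 2 and 2 shared. This is 2.92 and 7.30 peaks per Mb (5.11 ± 3.10, SD, n = 2), a difference of 3 peaks between the lists. Its flanks held 16.1 and 27.8 peaks per Mb in replicate 1, and 19.0 and 32.1 in replicate 2, so both were above the cluster in each list. For shared peaks the cluster had 2.92 per Mb (0.354 to 10.6), the flanks 14.6 and 26.3, and chromosome 15 as a whole 7.37. The interval covered the density of the chromosome and the 6.29 of all assembled chromosomes. By list, all assembled chromosomes had 7.23 and 8.37 peaks per Mb, beside 2.92 and 7.30 in the cluster. Both shared peaks were those of Krt80 at the left end.

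**Figure D2:**
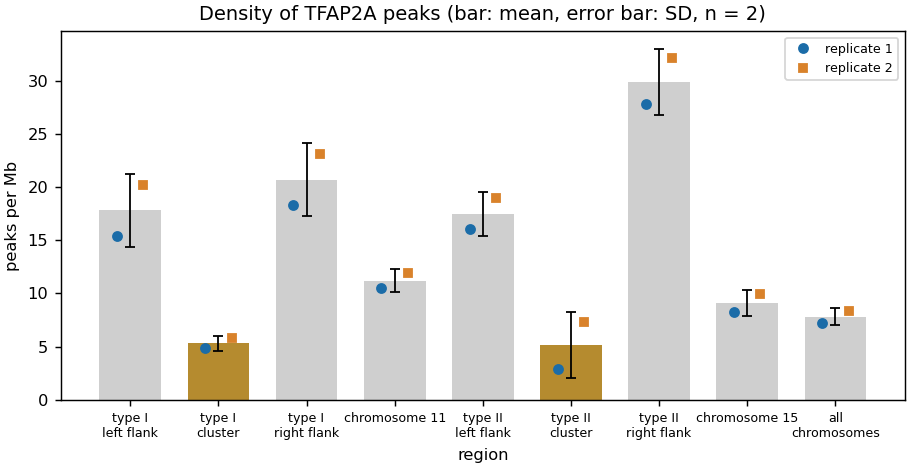
Peaks per Mb in the keratin clusters (brown bars), in equal lengths to the left and right, on the 2 chromosomes and on all assembled chromosomes; bars are means of the 2 replicates, error bars their SD (n = 2), and points the replicates. The clusters have means of 5.30 and 5.11, and their 4 flanks lie between 17.5 and 29.9.

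From the upstream Krt80 peak, no shared peak followed for 723 kb, and this stretch held all other 20 keratin genes of the type II cluster, from Krt7 to Krt18, among 28 protein-coding genes. Of 16078 gaps between neighbouring shared peaks of the genome, 765 (4.76%) were as long and 44 (0.274%) held as many protein-coding genes. Replicate 2 placed 3 peaks in this stretch, near Krt81, in 1700011A15Rik and between Krt78 and Krt8, so the run without a peak was shorter in that list. The next shared peak was 66.3 kb past the end of the cluster, upstream of Tenc1. The whole cluster held 2 shared peaks in 684.6 kb. Of the genome's 295 tiles of 1 Mb with at least 20 protein-coding genes, 43 (14.6%) held at most 2 shared peaks.

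The type I cluster had a run of 308 kb with the 10 keratin genes from Krt222 to Krt23, and a run of 370 kb with the 11 from Krt32 to Krt42. The genome's median gap between shared peaks was 42.1 kb, and over all gaps the mean number of protein-coding genes was 1.37. Of all gaps, 11.7% were as long as the first run and 1.49% held as many protein-coding genes. For the second run these shares were 9.71 and 0.585%. The second run included Krt14, Krt15, Krt16 and Krt17, and in replicate 2 it was broken by the peak upstream of Krt35. Between these runs lay Krt31, Krt34, Krt39, Krt40 and Krtap genes, with the 5 shared peaks. The highest of the 5 peaks, with fold enrichments of 11.1 and 10.5 (10.8 ± 0.462, SD, n = 2), was among the Krtap genes, 4191 bp from the TSS of Gm11595 in replicate 1 and at -225564 bp from Krt40, the nearest keratin gene of the rule.

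**Figure D3:**
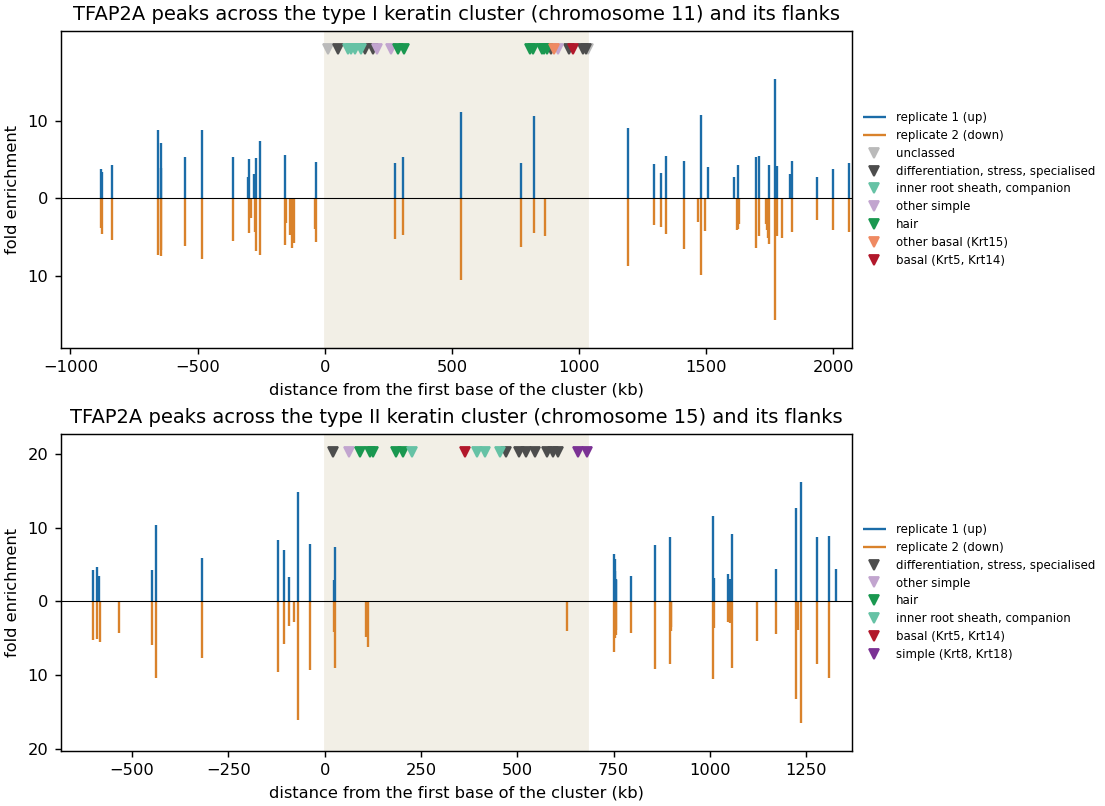
TFAP2A peaks by distance in kb from the first base of the type I cluster (upper panel) and the type II cluster (lower panel), with fold enrichment drawn upwards for replicate 1 and downwards for replicate 2; shading marks the cluster and triangles the TSS of each keratin gene, coloured by class. Peaks are dense outside the shading, and inside it the type II panel has shared peaks at the left end alone, 723 kb before the next.

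Among the 7 shared cluster peaks the median enrichment was 5.38 by replicate 1 values and 5.18 by those of replicate 2 (5.28 ± 0.141, SD, n = 2), against 5.93 and 6.40 for all shared peaks (6.16 ± 0.334). The 4 peaks of the clusters listed in replicate 2 only ranged from 3.97 to 6.15. The most enriched cluster peak was ranked 2355 of 18528 in replicate 1, where 12.8% of peaks were at least as enriched, and the Krt31 peak followed at 14.3%. In replicate 2 the same 2 peaks stood at 14.4 and 73.9%, and the upstream Krt80 peak was second at 21.1%.

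Sequence around keratin start sites was then compared with that of all genes. The 150 bases upstream of the TSS are shown for the 4 genes of the simple and basal pairs, since these pairs are compared here and none of their genes had a peak; they are on the gene's strand in mm9 with the consensus letters in capitals.
Krt8, minus strand, chr15:101834774-101834923: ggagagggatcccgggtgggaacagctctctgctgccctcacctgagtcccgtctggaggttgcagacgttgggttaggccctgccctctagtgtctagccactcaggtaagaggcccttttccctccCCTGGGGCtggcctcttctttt
Krt18, plus strand, chr15:101858497-101858646: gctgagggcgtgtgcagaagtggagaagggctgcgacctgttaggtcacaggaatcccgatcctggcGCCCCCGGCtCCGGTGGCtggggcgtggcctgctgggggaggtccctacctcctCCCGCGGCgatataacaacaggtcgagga
Krt5, minus strand, chr15:101543323-101543472: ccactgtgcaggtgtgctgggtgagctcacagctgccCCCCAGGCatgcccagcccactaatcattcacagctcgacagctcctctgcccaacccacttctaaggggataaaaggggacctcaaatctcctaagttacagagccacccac
Krt14, minus strand, chr11:100068863-100069012: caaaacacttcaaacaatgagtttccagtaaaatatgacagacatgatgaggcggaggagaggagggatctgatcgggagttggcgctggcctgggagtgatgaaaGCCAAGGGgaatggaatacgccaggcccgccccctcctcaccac

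All 4 stretches hold the letters, Krt18 in 3 overlapping or separate matches and the others in 1 each. Such stretches held them in 16 of 46 keratin genes (34.8%) and in 39.8% of all genes; Krt80, the gene with a peak, had none there, nor had Krt1 and Krt10. Over the whole 6 kb window at the 5' end of the gene model a keratin gene had a median of 10.0 matches (4 to 27). The median of all genes was also 10.0. Genes with a shared peak at a TSS had a median of 13.0 matches, above both. None of the 46 keratin windows lacked the letters.

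CpG content was lower at keratin start sites. It was measured at the 5' end of each gene model, and peaks were counted at any annotated TSS. For genes with several TSSs these places can differ. The ratio of observed to expected CpG within 500 bp of that end had a median of 0.323 in keratin genes (0.0779 to 0.583). The median was 0.549 in all genes and 0.731 in the 3802 genes with a shared peak at a TSS. Across all genes, a shared peak was found at 7.02% of genes with a ratio below 0.4, at 15.7% of those from 0.4 to 0.6, and at 26.2% of those at 0.6 or more. Keratin genes numbered 33, 13 and 0 in these classes. Weighting the shares of all genes by those numbers gives 9.48%, or 4.36 of 46 genes, beside the 1 gene counted. The keratin share counted was 2.17% (exact interval 0.0550 to 11.5), and the share of all genes was 17.0%. The part of CpG content in the keratin result was not tested beyond these values.

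**Figure D4:**
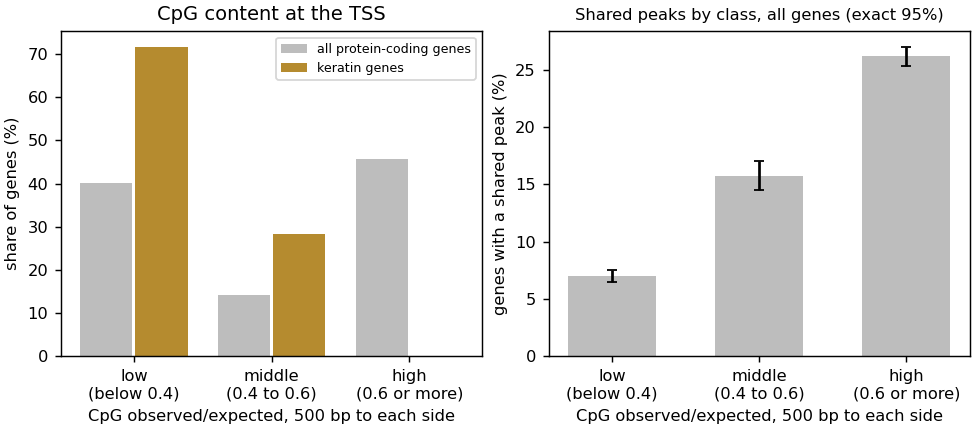
Left, share of all protein-coding genes (grey) and keratins (brown) in 3 classes of CpG observed to expected ratio within 500 bp of the 5' end. Right, share of all genes of each class with a shared TFAP2A peak at any TSS, with exact 95% intervals. Keratin genes fill the low class (71.7%) and the middle class (28.3%) and none is in the high class, where 26.2% of all genes have a shared peak.

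Keratin genes resemble each other in sequence, so the share of the region in which short reads can be placed was also measured. Of 32-base windows, 87.7% of those in the type I cluster and 91.2% of those in the type II cluster occurred at a single place in mm9, against 91.8 and 92.2% in the type I flanks and 94.4 and 89.8% in the type II flanks. Neither cluster had undetermined bases. Over the 46 windows at the 5' ends of the gene models the lowest share was 68.7%, at Krt75. How reads with several matches were handled is not given in the sources used here, and its part in the result was not tested.

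The last comparison set keratins beside genes that share their place or their filament system. Within the 2 clusters, the 60 protein-coding genes that are neither members nor the 5 suffixed Krt symbols named above had 1 gene with a shared peak in the window (1.67%, 0.0422 to 8.94), namely Gm14188, through the same strong peak near Gm11595. The 46 Krtap genes, which encode the matrix proteins of hair and lie partly inside the type I cluster, had none (upper limit 7.71%). Keratin genes and their neighbours in the clusters thus had like shares, each with an upper limit below the 17.0% of all genes.

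Genes for intermediate filament proteins elsewhere in the genome had more peaks. Of 16 such genes, 6 had a shared peak (37.5%, 15.2 to 64.6), with mean fold enrichments of 12.1 for Vim, the filament protein of mesenchymal and neural crest cells, 10.1 for Lmna and 9.65 for Lmnb1, which form the nuclear lamina, 6.77 for Synm, 6.02 for Nes and 3.37 for Sync. Of 13 genes for proteins that tie keratin filaments to desmosomes and hemidesmosomes, 5 had a shared peak (38.5%, 13.9 to 68.4). These were Plec (12.1), Pkp4 (5.55), Dst (5.25), Itga6 (4.94) and Itgb4 (2.72), with their mean fold enrichments, and Ppl and Pkp2 had peaks in replicate 2 only. Of 9 cornified envelope genes, 1 had a shared peak: Tgm1, a crosslinking enzyme (11.1). The intervals of the filament genes and of the linker genes included the 17.0% of all protein-coding genes.

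**Figure D5:**
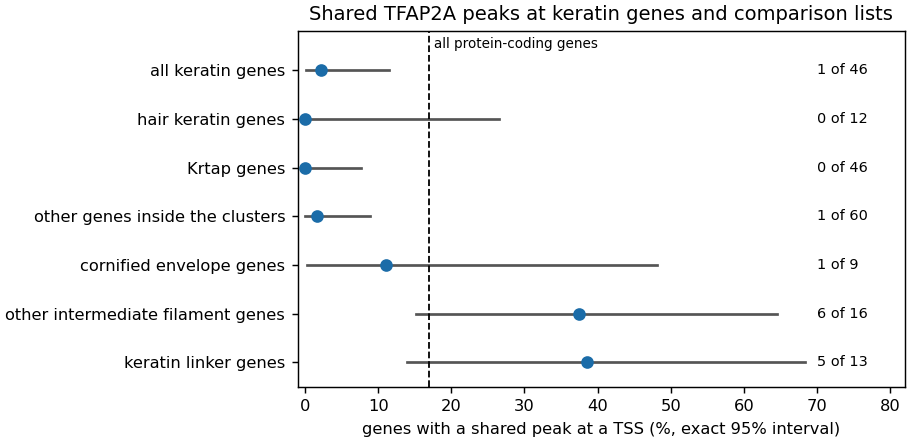
Percent of genes with a shared TFAP2A peak no more than 5 kb before or 1 kb past a TSS, with exact 95% intervals (counting error only) and the counts at the right; the dashed line marks all protein-coding genes, 17.0%. Keratin, Krtap and other cluster genes (the latter 2 lists overlap) lie left of the line with their whole intervals, and the 6 of 16 other filament genes and 5 of 13 linker genes lie right of it with intervals that include it.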

How the data were processed

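ChIP-seq for TFAP2A was done on 2 melan-a replicates with an input. The authors deposited 1 peak list per replicate, called separately; the submitters' processing notes name BWA, MACS 1.4.2 and mm9, with no settings. The file layout, with q-values and summits in narrowPeak columns, is that of MACS2, so which version set the enrichments and q-values is uncertain. Each deposited list gives a fold enrichment over background (a ratio), -log10 p and -log10 q-values and a score, which restates the -log10 p and was not used. The lists hold no peak below a -log10 q of 2.64.

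Summits were set against GENCODE vM1 genes on mm9 (NCBIM37) with Python 3.11.15, numpy 2.4.6, pandas 2.3.3, scipy 1.17.1 and pysam 0.24.0. Offsets are to the nearest annotated TSS. Shared peaks are replicate 1 peaks with at least 1 bp of overlap. Peaks on unplaced contigs (37 and 41) and mitochondrial DNA (1 each) were left out. Intervals are Clopper-Pearson or Poisson at 95%. Functions were tested on simulated data. No test across genes was run. Members, classes and comparison lists were chosen with earlier results of these data known. Genes named are the simple, basal and suprabasal pairs, every keratin with a peak in the window, those nearest outside it, other members that show a class, and list genes with a shared peak. The class lists' Krt72, Krt85 and Krt87 did not match a gene of the annotation.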

Additional observations from a re-analysis of the deposited data

How the results depend on the processing

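Of 224 values recomputed as planned, 183 stayed within 1.5 times the reported count (for medians, within 1 SD of the values that each list gave on its own, with all its peaks) and 41 did not. The keratin counts at start sites were low under each alternative up to a 10 kb window. Keeping the more enriched 50% of each list gave 0 keratin genes with a shared peak, against 6.40% of all genes. It gave 0 keratin genes in replicate 1, 1 in replicate 2, 0 in the differentiation class, 1 shared peak in each cluster and 1 linker gene. The median distance was then 239 kb, the median enrichment 9.22, and 1 peak had a central site. A window of 1 kb on each side, where 12.9% of all genes had a shared peak, gave 1 keratin gene in replicate 2, 3 linker genes and 0 genes in both the cornified envelope list and the list of other cluster genes. A window of 10 kb gave 3 keratin genes shared, 3 in replicate 1 and 6 in replicate 2, 2 hair genes and 3 other cluster genes. Of all 22367 genes, 26.3% had a shared peak there, 6372 a replicate 1 peak and 7045 a replicate 2 peak. The largest changes came with a window of 100 kb, which gave 22, 22 and 29 keratin genes, against 69.6, 72.1 and 74.9% of all genes. Of the classes it gave 2 of the simple pair, 4 other simple, 1 other basal and 0 of the basal pair. It also gave 4 differentiation, 10 hair and 1 unclassed gene. Of the lists it gave 24 of 46 Krtap, 14 of 16 filament, 12 of 13 linker and 51 of 60 other cluster genes.

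Leaving out a replicate gave 1 to 2 keratin genes with a peak, 0 to 1 hair genes, 2 to 5 peaks in the type II cluster, a median distance of 72.0 to 121 kb, a median enrichment of 4.84 to 5.38 (5.18 for shared peaks with replicate 2 values) and 2 to 9 cluster peaks with a central site. Central sites numbered 6 with replicate 2 summits, 5 within 100 bp and 0 for the longer GCCNNNGGC at replicate 1 summits; at replicate 2 summits, a combination chosen after seeing the data, the longer form gave 2. The cause of these changes was not tested, beyond the wider or narrower windows and lists themselves. No paired analysis was possible because the replicates are of 1 group and there is no second group with files. Read depth was unknown, so a peak in 1 list only may be a difference of depth.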
